A study of Homo sapiens with 4 samples.

Results

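The genes described here carry glucose from the plasma membrane to acetyl-CoA: glucose transporters, glycolytic enzymes and the regulators of phosphofructokinase, lactate dehydrogenases, enzymes of the pentose phosphate pathway and subunits of the pyruvate dehydrogenase complex. Of 35 listed genes, 33 had a probe set to which the array annotation gives exactly 1 symbol, out of 19775 such genes in the series, and the monocarboxylate carriers SLC16A1 and SLC16A3 were not analysed here. Each gene was read through its brightest such probe set. The 33 members all had a mean above the filter on low values (a signal of 70.5, the 40th percentile of all genes), as did 11865 genes in all.

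HEK293 is an adherent human embryonic kidney line transformed with adenovirus sequence. The cells were grown with serum, deprived of it overnight, and either left untreated or given 1 µM lysophosphatidic acid (LPA, a phospholipid of serum that acts through G protein-coupled receptors) for 2 h, with 2 arrays per group numbered 1 and 2. Untreated arrays are titled Vc, an abbreviation left unexplained. Nothing states whether a number marks a shared culture or day, or whether the arrays came from separate cultures, and the p-values therefore cover the array-to-array spread only, part of which may be technical. The signal is the MAS5 intensity of a probe set in arbitrary units, already scaled to a common trimmed mean of 500.1 on each array. Of 7 markers of the HEK293 line 6 passed the filter, among them vimentin (VIM) and the neurofilaments NEFL and NEFM, and LHX1 lay below it. Of 10 markers of other cell types with a probe set 5 also passed, namely the collagens COL1A1 (847 to 1103) and COL3A1 (188 to 246), EPCAM of epithelium (251 to 318), HBB of red cells (57.9 to 175) and PECAM1 of endothelium (48.3 to 129.96). The other 5 lay below it, namely PTPRC and LYZ of leukocytes, VWF of endothelium, COL1A2 and ALB of hepatocytes. The 10 summed to 1680.1 and 2115 on untreated arrays 1 and 2 and to 1720.4 and 1922 on the LPA arrays. The LPA array of number 2 had the lowest maximum, 62508 against 93776 to 104012. It also had the highest ratio of 3′ to 5′ signal for ACTB, 18.8 against 12.6 to 13.6. For GAPDH that ratio was 1.38 on this array against 1.22 to 1.35 on the others.

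Glycolysis splits glucose into pyruvate in the cytosol. Its committed step is made by phosphofructokinase, which is activated by fructose 2,6-bisphosphate, the product of the PFKFB enzymes. Pyruvate is either reduced to lactate or oxidised in mitochondria by the pyruvate dehydrogenase complex, and glucose 6-phosphate can instead enter the pentose phosphate pathway, a source of NADPH and of ribose for nucleotides. Several steps are encoded by families of isoenzymes, and many of these genes are known targets of HIF (the hypoxia-inducible transcription factor), while TXNIP and ARRDC4 are known targets of MondoA, a factor that responds to glucose phosphates. Established lines such as HEK293 are known for high glucose use even with oxygen present.

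For several steps more than 1 isoenzyme was above the filter. The glucose transporters SLC2A1 (GLUT1) and SLC2A3 (GLUT3) passed, while SLC2A2 (GLUT2, known from liver) read 1.67 to 11.4 and SLC2A4 (GLUT4, the insulin-responsive form of muscle and fat) 3.62 to 50.9 over the 4 arrays. Hexokinases HK1 and HK2, which trap glucose as its phosphate, read 2657 to 3996 and 4433 to 6775, and HK3 5.88 to 10.5. All 3 phosphofructokinase genes passed, with PFKM at 3200 to 3858, PFKP at 3363 to 4370.0 and PFKL at 392 to 593. Among the enolases ENO1 read 27742 to 35009, and ENO2, known as the neuronal form, 238 to 660.2. The pyruvate kinase gene PKM passed at 774 to 1018.8, and PKLR, the gene of the liver and red cell forms, read 8.46 to 21.9. PGK2 and PGAM2, known from testis and muscle, were below the filter on average, at 46.1 to 106.0 and 3.74 to 88.0. Other forms known from these tissues passed it, the testis lactate dehydrogenase LDHC at 574 to 1018.0 and the muscle enolase ENO3 at 72.0 to 134. Probe sets differ in how strongly they bind their target, so these signals were set against the filter and not against each other. The genes tested were divided by mean signal into 4 groups of equal size, and 23 of the 33 members lay in the brightest, which starts at 2142, while 8 had a mean above 20000 (ALDOA, TPI1, GAPDH, PGK1, PGAM1, ENO1, LDHA and LDHB).

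**Figure D1:**
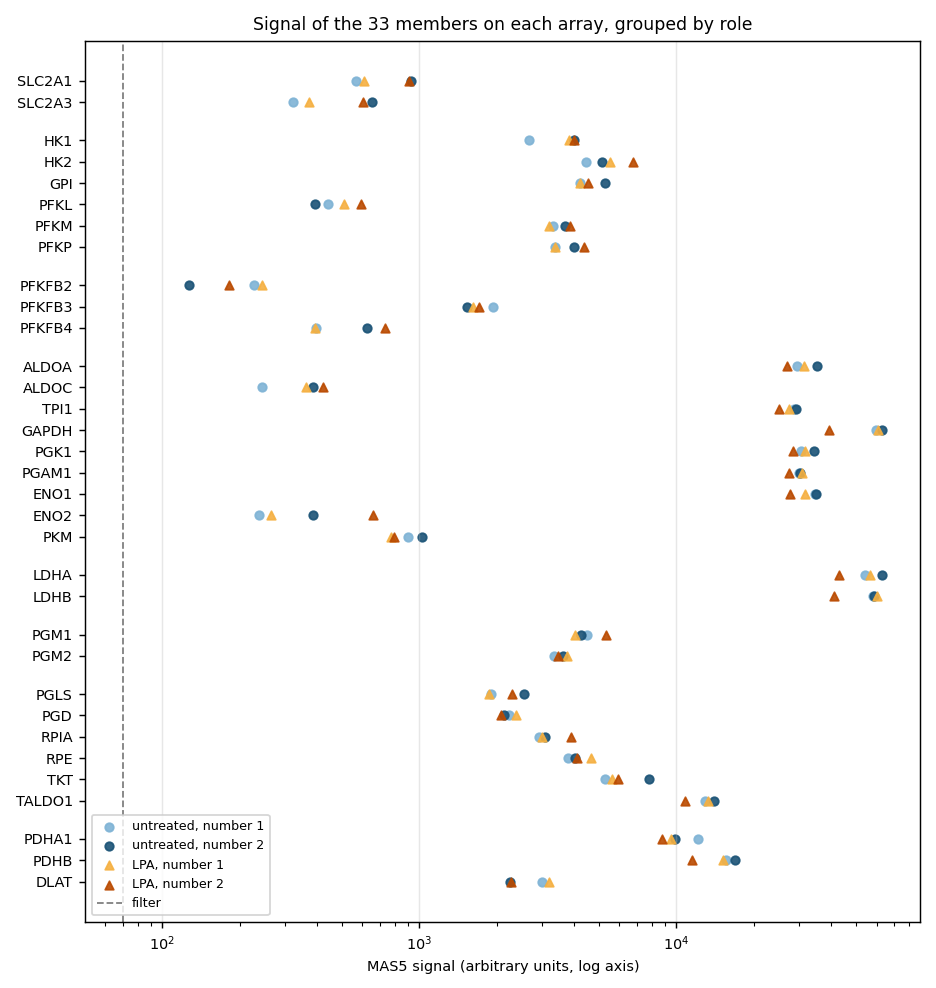
MAS5 signal (arbitrary units, log axis) of the 33 members on each array, grouped by role; circles are untreated and triangles LPA arrays, light for number 1 and dark for number 2, and the dashed line is the filter at 70.5. SLC2A1, SLC2A3, PFKFB4 and ENO2 are higher on both dark symbols, DLAT is lower on both, and GAPDH, LDHA and LDHB are lowest on LPA array 2.

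The first comparison sets LPA against untreated, serum-deprived cells. No member was called: 0 of 33 passed an adjusted p of 0.05, against 0% of all 11865 genes (0 genes by limma), and 0 members had an unadjusted p under 0.05, against 207 genes, 1.74% of those tested. This fit has no term for the replicate number, so differences between the numbers add to its error. With the number as a block in limma, 1014 genes and 2 members had an unadjusted p under 0.05. The median log2 difference, LPA minus untreated on the log2(signal + 1) scale, was 0.013 over the members and 0.0092 over all genes tested, with 17 members above 0 and 16 below. The difference was positive in both numbers for 9 members and negative in both for 6, against 28.3% and 25.2% of all genes. Both LPA arrays lay above both untreated arrays for 3 members (HK2, PFKL and RPE) and below them for 5 (TPI1, ENO1, PKM, PDHA1 and PDHB), against 14.4% and 12.5% of all genes. All the values that follow for this comparison had a limma adjusted p of 0.9999. The median standard error (SE) over all genes was 0.24, and missing the threshold does not show that a member did not differ.

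HK2, the hexokinase of muscle and of many tumours, had the smallest unadjusted p among the members. It read 4433 and 5141 on untreated arrays 1 and 2 and 5492 and 6775 on LPA arrays 1 and 2, so that the groups did not overlap. The log2 difference was 0.35 ± 0.17 (SE, n = 2 arrays per group), split into 0.31 (number 1) and 0.40 (number 2). A pair of dimmer HK2 probe sets near the filter gave -0.42 and -0.56. HK1, the widely expressed hexokinase, read 2657 and 3980.2 against 3816 and 3996, a difference of 0.26 ± 0.20 in which untreated array 1 alone was low. PFKL, the liver-type phosphofructokinase, read 443 and 392 against 508 and 593 (0.40 ± 0.25), while its second probe set, at 372 and 336 against 313 and 231, differed by -0.39. RPE, the epimerase of the pentose phosphate pathway, differed by 0.16. SLC2A1, the basal glucose transporter of most cells, gave 0.041 ± 0.30.

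Members with lower values on both LPA arrays lay in lower glycolysis and in pyruvate oxidation. ENO1, the widely expressed enolase, had signals of 34656 and 35009 untreated and 31637 and 27742 with LPA (-0.23 ± 0.16). PKM read 901 and 1018.8 against 774 and 795 (-0.29 ± 0.20), but its dimmer probe set gave 0.49. PDHA1, the catalytic E1 alpha subunit of pyruvate dehydrogenase, read 12129 and 9857 against 9523 and 8810.2 (-0.26 ± 0.16), and its other probe sets gave 0.098 and 0.0087. PDHB, the E1 beta subunit, read 15552 and 16943 against 15152 and 11527 (-0.30 ± 0.17), with -0.04 in number 1 and -0.56 in number 2. TPI1, the triose phosphate isomerase, differed by -0.14, and its other probe sets gave -0.16 and 0.46. For PDHB the lower value thus came mainly from LPA array 2.

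The 8 members brighter than 20000, a limit chosen after their values were seen, were likewise lowest on LPA array 2. GAPDH, the dehydrogenase of lower glycolysis and a common internal standard, had untreated signals of 59949 and 63272 and LPA signals of 60921 and 39259, so 3 arrays lay close together and LPA array 2 lay apart. Its log2 difference was 0.023 in number 1 and -0.69 in number 2, and -0.33 ± 0.22 in the fit. LDHA and LDHB, the subunits of lactate dehydrogenase, read 53879 and 62754 against 56436 and 42779, and 57899 and 58568 against 60029 and 40987.0. Their fitted log2 differences were -0.24 ± 0.19 for LDHA and -0.23 ± 0.21 for LDHB. All 6 probe sets of GAPDH, which include its 3′, middle and 5′ control sets, were lower on LPA array 2 than on untreated array 2, with log2 differences of -0.45 to -0.77.

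In number 2 all 8 of these members were lower after LPA, with a median of -0.36, and so were 243 of the 253 genes of that brightness, with a median of -0.39. In number 1 only 2 of the 8 were lower, with a median of 0.048, against 126 of 253 genes and a median of 0.0001. Members and other genes of this brightness thus had like values, and the difference lay on the array with the low maximum. The part of array scaling, labelling or RNA quality in it was not tested. Quantile normalization, which gives the arrays the same distribution, brought the fitted median of the 8 from -0.19 to 0.037 and that of GAPDH from -0.33 to -0.035, and turned LDHA (0.074) and LDHB (0.059) above 0. Cyclic loess left the median of the 8 at -0.033 and GAPDH at -0.16.

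**Figure D2:**
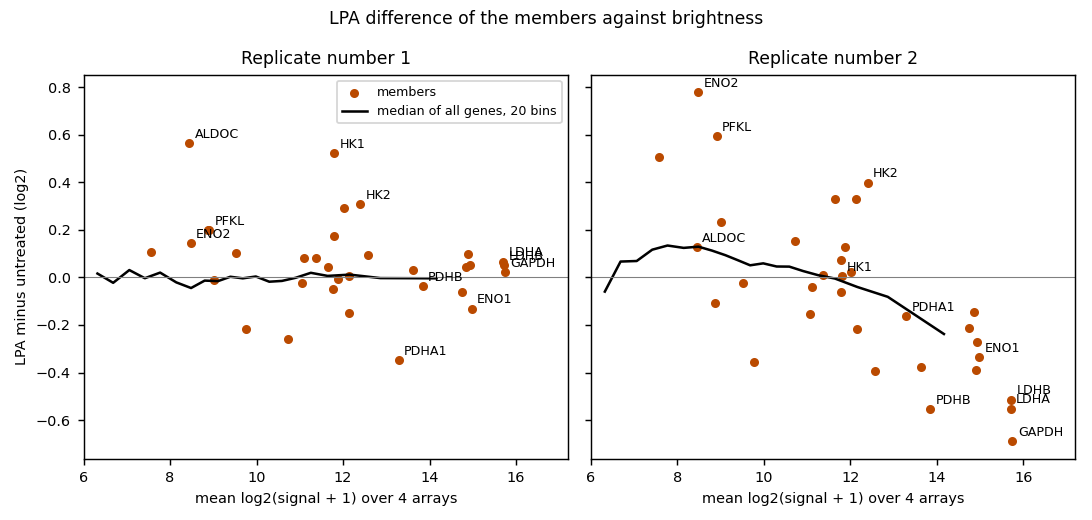
LPA minus untreated (log2) against the mean log2(signal + 1) over 4 arrays, in replicate numbers 1 and 2; points are the members and the black line is the median of all genes tested in 20 bins of brightness. In number 1 the line stays near 0, while in number 2 it falls to -0.24 in the brightest bin and GAPDH lies at -0.69.

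The second comparison sets the arrays numbered 2 against those numbered 1. In a limma fit with a term for the treatment group, 6 of 33 members passed an adjusted p of 0.05. Over all genes 11.6% did (1382 of 11865), and the members were listed with earlier results of these data known. Of these 6, 5 were higher on number 2, where 5.79% of all genes were called higher, and 1 was lower, where 5.86% were. Over all genes 687 were higher and 695 lower, or 546 and 1103 when each array was centred on its median. The members called higher were the glucose transporters SLC2A1 and SLC2A3, the regulator PFKFB4, the enolase ENO2 and PGLS of the pentose phosphate pathway, and the member called lower was DLAT of the pyruvate dehydrogenase complex. Because the labels do not say what the number marks, this is a difference between arrays that share a number and not between conditions of the study. The median difference over all members was 0.019, against 0.014 over all genes.

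SLC2A1 read 567 in untreated and 609.8 in LPA cells on the arrays numbered 1, and 925 and 909.8 on those numbered 2. Both number 2 arrays were thus above both number 1 arrays, and the fitted log2 difference, number 2 minus number 1, was 0.64 ± 0.17 (SE, 4 arrays), 1.56-fold, with limma adjusted p = 0.0118. SLC2A3, a transporter of high affinity, read 323 and 371 on number 1 and 651 and 604 on number 2. Its difference was 0.86 ± 0.22 (1.81-fold, limma adjusted p = 0.00904), and the dimmer SLC2A3 probe sets were also higher, by 1.54 and 0.86. SLC2A3 has a close copy, SLC2A14, and its probe sets may read both.

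PFKFB4, which makes and degrades fructose 2,6-bisphosphate, read 396 and 393 on the untreated and LPA arrays numbered 1, and 625 and 735 on those numbered 2. The groups of arrays did not overlap, and the difference was 0.78 ± 0.20 (1.72-fold, limma adjusted p = 0.0116). Its relatives PFKFB3, the form known for its high kinase activity, and PFKFB2, known from heart, were not called. PFKFB3 differed by -0.34 in untreated and 0.072 in LPA cells, and PFKFB2, at 227 and 244 on number 1 and 127 and 181 on number 2, by -0.63.

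In lower glycolysis ENO2 was the member called, and it had the largest fitted difference of the 33. It read 238 in untreated and 263 in LPA cells on number 1 and 384 and 660.2 on number 2, a log2 difference of 1.00 ± 0.26 (2.01-fold, limma adjusted p = 0.00954). LPA array 2 was the highest of the 4, and the difference was 0.69 in untreated and 1.32 in LPA cells. ALDOC, the brain-type aldolase, read 245 and 363 on number 1 and 386 and 422 on number 2 (0.44, not called). The widely expressed counterparts of these isoenzymes, ENO1 and ALDOA, had fitted differences of -0.087 and 0.019. GAPDH gave -0.28 ± 0.29, LDHA -0.090 ± 0.28 and LDHB -0.27 ± 0.28, each slightly positive in untreated cells (0.078, 0.22 and 0.017) and negative in LPA cells (-0.63, -0.40 and -0.55), where LPA array 2 enters. Under quantile normalization LDHA turned to 0.080.

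PGLS, the lactonase of the pentose phosphate pathway, read 1899 and 1868 on number 1 and 2551 and 2292 on number 2, a difference of 0.36 ± 0.11 (1.28-fold, limma adjusted p = 0.0366). Its 4 probe sets above the filter were all higher, by 0.16 to 0.49. TKT, the transketolase that exchanges carbon between both pathways, read 5256 and 5608 on number 1 and 7785 and 5919 on number 2 (0.32, not called), and its other probe sets gave 0.24 and 1.39. TKT was called with a pseudocount of 64 and with cyclic loess. DLAT, the E2 acetyltransferase of the pyruvate dehydrogenase complex, went the other way. It read 3006 and 3183 on number 1 and 2246 and 2265 on number 2, with no overlap, a difference of -0.46 ± 0.11 (0.73-fold, limma adjusted p = 0.00636). Its other probe sets gave -0.72 and -0.24, and the E1 subunits PDHA1 (-0.21) and PDHB (-0.14) were not called.

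In upper glycolysis all 6 members had a positive difference and 0 passed, but HK1 and PFKP passed under other settings. HK1 gave 0.32 ± 0.12 (limma adjusted p = 0.0732), HK2 0.26 ± 0.11 (limma adjusted p = 0.15) and PFKP, the platelet-type phosphofructokinase, 0.31 ± 0.11 (limma adjusted p = 0.0621). With a pseudocount of 64 the limma adjusted p was 0.0298 for HK1 and 0.0385 for PFKP, with cyclic loess it was 0.0346 and 0.0308, and with the filter at the 60th percentile PFKP reached 0.0387. HK1 differed by 0.58 in untreated but by 0.067 in LPA cells. GPI, the phosphoglucose isomerase, gave 0.22, PFKM 0.21 and PFKL 0.024. PFKL differed by -0.17 in untreated and 0.22 in LPA cells, and its second probe set gave -0.29. The sign of HK2 was not shared by its dimmer probe sets, at -0.77 and -0.47. Of the 17 members with several probe sets above the filter, 11 had the same sign on all of them for this difference, and 5 for the difference between LPA and untreated. In the brightest of the 4 groups by signal 1 of 23 members was called, against 15.2% of its genes. In the second dimmest, at mean signals of 347 to 734, 4 of 6 members were, against 9.91%. The members were listed with earlier results of these data known, so these shares only describe the list.

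**Figure D3:**
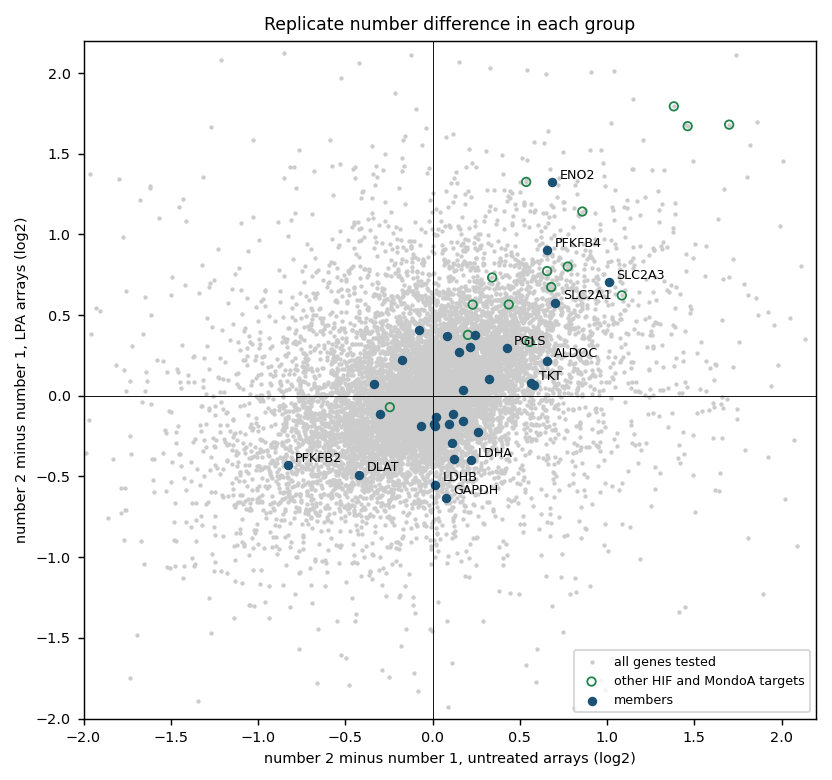
Number 2 minus number 1 (log2) in untreated arrays, horizontal, and in LPA arrays, vertical; grey points are all genes tested (74 lie outside the axes), filled points the members and open circles the other HIF and MondoA targets. SLC2A1, SLC2A3, PFKFB4 and ENO2 are at 0.58 or more on both axes, and GAPDH, LDHA and LDHB are below 0 on the vertical axis alone.

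This difference can be read in the untreated and in the LPA arrays apart. Whether these readings are independent is unknown, since nothing states what a shared number marks. The difference was positive in both groups for 14 of 33 members and negative in both for 4, against 34.1% and 30.7% of all genes. It had opposite signs for 15. Both number 2 arrays were above both number 1 arrays for 12 members and below them for 3, against 26.5% and 24.1%. Without LPA array 2, in untreated cells alone and with no test, the 6 called members kept their direction. SLC2A3 was at 1.01, SLC2A1 at 0.70, ENO2 at 0.69, PFKFB4 at 0.66, PGLS at 0.43 and DLAT at -0.42. Their call used these same untreated values and favours like signs in both groups, so the kept direction adds no separate evidence. The calls rest on the variance model, since without limma's intensity trend 0 of 11865 genes passed (1822 had an unadjusted p under 0.05) and the adjusted p of these 6 ranged from 0.296 to 0.356. Without the treatment term 2 of them passed, SLC2A3 and DLAT, and with the mean of all probe sets of a gene TKT was the 1 member that passed. With neither that term nor LPA array 2, a setting chosen after seeing the data, TKT was again the 1 member called, and PGLS was not called under quantile normalization or median centring.

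**Figure D4:**
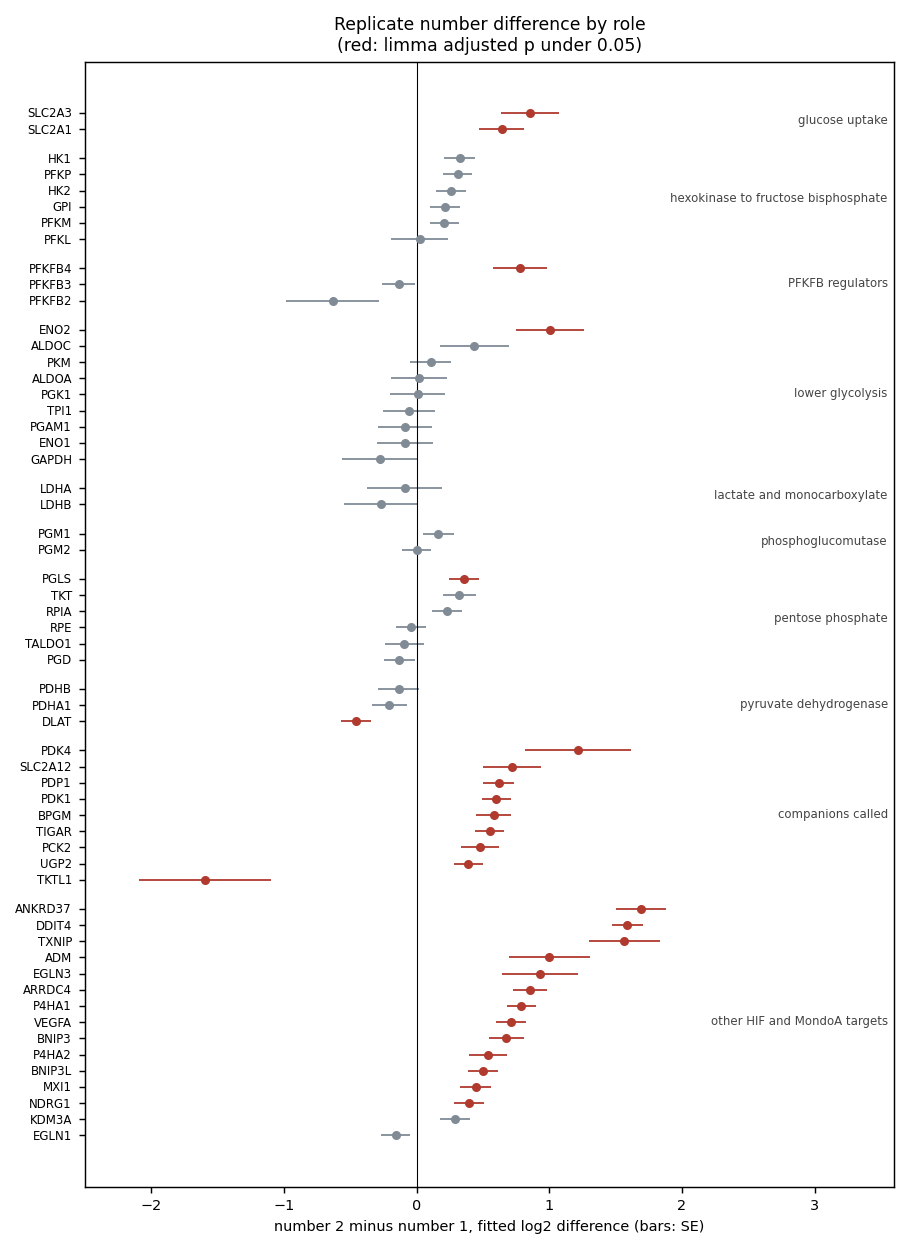
Fitted number 2 minus number 1 difference (log2, bars are the SE) of the 33 members by role, of the 9 related genes called and of 15 other HIF and MondoA targets; red marks a limma adjusted p under 0.05. In lower glycolysis ENO2 stands at 1.00 while the bright enzymes lie within 0.28 of 0. Of the 15 HIF and MondoA targets 13 are red, against 11.6% of all genes called.

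Among 54 related genes, which hold the remaining isoenzymes, the regulators of pyruvate dehydrogenase, the mitochondrial pyruvate carrier and enzymes of glycogen, 49 had a probe set with 1 symbol and 36 passed the filter. After LPA 0 of the 36 were called, with a median of 0.053; the smallest unadjusted p values belonged to PYGL, the liver glycogen phosphorylase (-0.25), TKTL1 (1.28), ENO3, the muscle enolase (0.64), and MPC1 of the pyruvate carrier (-0.23). Between the numbers 8 of the 36 were called higher and 1 lower, against 5.79% and 5.86% of all genes. The related genes were listed with earlier results of these data known. PDK1, a kinase that switches off pyruvate dehydrogenase, read 2613 and 2988 on number 1 and 3679 and 4889 on number 2 (0.60 ± 0.11, limma adjusted p = 0.000481). PDP1, the phosphatase that switches the complex on, rose with it (0.62 ± 0.12, limma adjusted p = 0.000643). TIGAR, which degrades fructose 2,6-bisphosphate, gave 0.55 ± 0.11 and BPGM, the bisphosphoglycerate mutase, 0.58 ± 0.13 (limma adjusted p = 0.001 and 0.00305). The others were UGP2, PCK2, SLC2A12 and PDK4, and TKTL1 was the gene called lower. TKTL1 read 192 and 204 on the untreated and LPA arrays numbered 1, and 27.0 and 154 on those numbered 2. Its signal was below the filter on untreated array 2 alone. Its difference between the numbers was -2.79 in untreated and -0.40 in LPA cells. Its difference after LPA was 0.082 in number 1 and 2.47 in number 2. Both differences of TKTL1 thus came mainly from untreated array 2.

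Of 16 HIF and MondoA targets outside the 35 genes 15 were tested. On number 2, 13 of them were called higher, against 5.79% of all genes. EGLN1 (-0.16) and KDM3A (0.29), named after their values were seen, were not called. The list itself was chosen with earlier results of these data known. DDIT4, an inhibitor of mTOR signalling, differed by 1.59 ± 0.12, ANKRD37 by 1.69 ± 0.19 and P4HA1, a collagen prolyl hydroxylase, by 0.79 ± 0.11 (limma adjusted p = 1.71e-10, 3.39e-07 and 1.32e-05). After LPA 0 of the 15 were called. The median difference between the numbers was 0.71 for these 15 genes, 0.019 for the 33 members and 0.014 over all genes tested.

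The 250 bases before the annotated start are shown for the called members that the RefSeq promoter table (GRCh38.p14) holds, because HIF targets outside the member list were called as well. SLC2A3 is not among the 31 members matched. The letters ACGTG and GCGTG, the core of the HIF element, are in capitals on either strand (as CACGT and CACGC on the reverse), and overlapping matches run together. The windows are chr1:42958869-42959118 (minus strand) for SLC2A1, chr3:48556804-48557053 (minus strand) for PFKFB4, which lies inside the span of a longer model of the gene, chr12:6914330-6914579 (plus strand) for ENO2, chr19:17511399-17511648 (plus strand) for PGLS and chr11:112025158-112025407 (plus strand) for DLAT. Each is written 5′ to 3′ on the strand of its gene.
SLC2A1: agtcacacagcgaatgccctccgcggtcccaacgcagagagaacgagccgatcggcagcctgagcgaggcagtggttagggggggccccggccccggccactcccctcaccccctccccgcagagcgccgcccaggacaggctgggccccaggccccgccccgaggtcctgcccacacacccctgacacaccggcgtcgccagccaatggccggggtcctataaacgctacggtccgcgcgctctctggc
PFKFB4: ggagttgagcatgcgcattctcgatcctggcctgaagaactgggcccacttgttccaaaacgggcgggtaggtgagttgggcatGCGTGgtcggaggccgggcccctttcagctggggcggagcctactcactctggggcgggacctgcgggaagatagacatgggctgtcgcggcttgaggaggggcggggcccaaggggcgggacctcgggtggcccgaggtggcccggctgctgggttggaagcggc
ENO2: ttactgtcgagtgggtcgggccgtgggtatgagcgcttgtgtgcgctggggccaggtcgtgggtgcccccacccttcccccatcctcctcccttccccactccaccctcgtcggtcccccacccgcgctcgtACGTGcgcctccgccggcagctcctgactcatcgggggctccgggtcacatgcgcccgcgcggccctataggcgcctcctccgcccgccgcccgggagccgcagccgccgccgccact
PGLS: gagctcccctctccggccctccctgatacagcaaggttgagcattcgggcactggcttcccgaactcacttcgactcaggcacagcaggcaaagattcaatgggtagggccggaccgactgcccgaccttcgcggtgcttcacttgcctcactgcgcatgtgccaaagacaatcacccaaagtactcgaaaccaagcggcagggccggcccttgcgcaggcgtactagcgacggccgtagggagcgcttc
DLAT: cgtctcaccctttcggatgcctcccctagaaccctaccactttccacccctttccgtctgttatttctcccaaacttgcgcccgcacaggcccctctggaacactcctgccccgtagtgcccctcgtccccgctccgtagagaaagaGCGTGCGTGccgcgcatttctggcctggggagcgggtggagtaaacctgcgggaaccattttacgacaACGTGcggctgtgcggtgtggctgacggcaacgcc

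A core was present in 3 of these 5 windows: with the base before the start as -1, ENO2 has ACGTG beginning at -118, PFKFB4 GCGTG at -166, and DLAT has 3 matches. Among the 26 matched members that were not called 15 held a core, among them LDHA with 5 matches and GAPDH with 2, named after they were seen. Each CACGTG reads as a core on both strands and was counted as 2 matches. The LDHA window holds 2 CACGTG and that of GAPDH 1, so their matches exceed their separate sites. The share over all 31 members, 58.1%, was near the 57.4% of the 9725 promoters of tested genes, and 42.6% of all 27305 promoters held one. Taken apart, ACGTG was in 38.7% of members and 23.3% of promoters of tested genes, and GCGTG in 41.9% and 45.9%. These shares were not tested. The E-box CACGTG, whose letters overlap ACGTG, was found in 5 of 31 members (16.1%) and in 8.81% of the promoters of tested genes. A match of 5 letters is a description of the sequence, and elements farther from the start lie outside these windows.

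**Figure D5:**
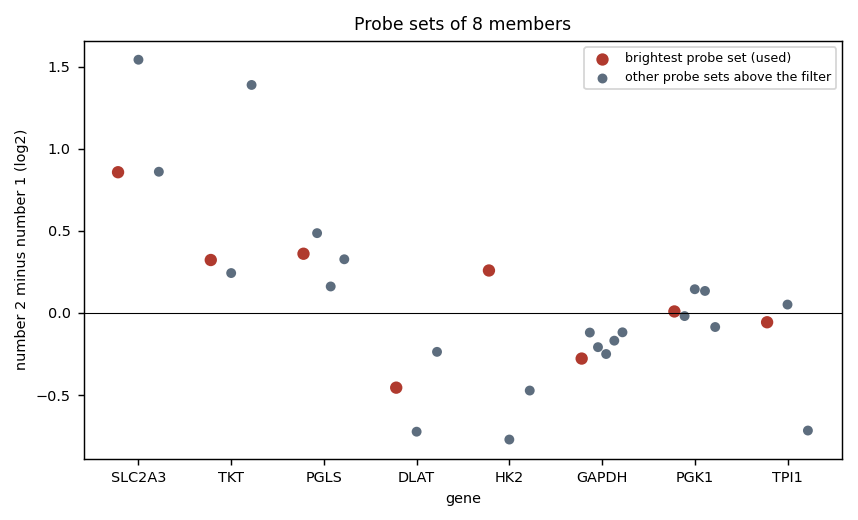
Number 2 minus number 1 difference (log2) of every probe set above the filter for 8 members; red points are the brightest probe sets, used in the text, and grey points the others. All probe sets of SLC2A3, TKT and PGLS lie above 0 and all of DLAT and GAPDH below, while those of HK2, PGK1 and TPI1 lie on both sides.

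The remaining members were not called in either comparison. The phosphoglucomutases PGM1 and PGM2, which link glycolysis with glycogen, differed by 0.090 and 0.057 after LPA and by 0.16 and 0.0010 between the numbers. PGK1, the phosphoglycerate kinase, gave -0.11 and 0.0089, and PGAM1, the phosphoglycerate mutase, -0.051 and -0.084. In the pentose phosphate pathway PGD, the phosphogluconate dehydrogenase, gave 0.020 and -0.13, RPIA, the ribose phosphate isomerase, 0.19 and 0.23, and TALDO1, the transaldolase, -0.17 and -0.091. Among members described above, PFKFB2, PFKFB4, ALDOC and ENO2 differed by 0.31, 0.11, 0.35 and 0.46 after LPA, and ALDOA by -0.15.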

How the data were processed

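The authors deposited 1 linear intensity for each of the probe sets on an array. The submitters' processing notes name MAS5, whose version and scaling target were not given in the sources used here. Of 54675 probe sets, 41097 carried 1 symbol, 1801 several and 11777 none. Each gene was read through its brightest probe set by mean log2(signal + 1), and genes below the 40th percentile were left out. LPA and untreated arrays were compared with limma 3.58.1 (R 4.3.3; lmFit and eBayes with an intensity trend, two-sided, Benjamini-Hochberg over 11865 genes). Number 2 was compared with number 1 in the same way with a term for the treatment group, leaving 1 residual degree of freedom before moderation. Errors are limma's moderated SE. The fits were run on simulated data with planted shifts and independent noise of the fitted variances. Such data hold no differences between whole arrays, so the run does not cover those seen here. A fold is on the log2(signal + 1) scale and understates the change of dim genes. The number of arrays limits the precision. Differences with their test are given, per comparison, for called members, for the 8 with the smallest p and for HK1, HK2, LDHA, LDHB, GAPDH and SLC2A1; others are given as values. The members and lists were chosen with earlier results of these data known. Alternatives covered the pseudocount, normalization, filter, probe set, variance model, replicate number and each array left out.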

Additional observations from a re-analysis of the deposited data

How the results depend on the processing

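For LPA minus untreated, 0 genes were called with a pseudocount of 64, quantile normalization, cyclic loess, median centring, no intensity trend, the probe sets of a gene averaged, the filter removed or the filter raised to the 60th percentile, and 1 with the second brightest probe set. Leaving out each array gave 0 to 3. With the replicate number as a block 32 genes were called, 4 with the block and quantile normalization and 46 with the block and cyclic loess, and in each of these 0 members. In these fits, in the same order, HK2 had a limma adjusted p of 0.267, 0.227 and 0.0576. The labels do not say that numbers pair the arrays; across genes the difference between the numbers in untreated and LPA arrays correlated at r = 0.33. The members' median became -0.16 with the second brightest probe set and lay between -0.11 and 0.052 with each array left out. Signs turned for HK2 (-0.21 with the mean of all probe sets, -0.42 with the second brightest), PKM (0.10 and 0.49), PDHA1 (0.098 with the second brightest), PFKL (-0.39 with the second brightest), LDHA (0.074) and LDHB (0.059; both under quantile normalization, with and without the block) and SLC2A1 (-0.38 with the mean of all probe sets, -0.0027 under cyclic loess with and without the block). Leaving out 1 array turned HK1 (-0.028 to 0.56), LDHB (-0.51 to 0.044) and SLC2A1 (-0.31 to 0.39). The cause was not tested.

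For number 2 minus number 1, 204 genes and 1 member (TKT) were called with the mean of all probe sets, 274 and 3 with the second brightest probe set (fewer genes tested), 0 and 0 with no intensity trend, and 445 and 2 with no treatment term. More were called with a pseudocount of 64 (1670 genes) and with cyclic loess (1643), each with 9 members, which added HK1, PFKP and TKT to the 6. With neither that term nor LPA replicate 2, chosen after seeing the data, 360 genes and 1 member (TKT) were called. The median over members was 0.11 under quantile normalization, -0.045 with median centring, 0.11 with the mean of all probe sets, 0.096 with neither the term nor LPA replicate 2, and 0.039 to 0.12 with each array left out. Signs turned for HK2 (-0.33 with the mean of all probe sets, -0.77 with the second brightest), LDHA (0.080 under quantile normalization), and, with neither the term nor LPA replicate 2, LDHA (0.19) and GAPDH (0.066). With each array left out GAPDH ranged from -0.63 to 0.078, LDHA from -0.40 to 0.22 and LDHB from -0.55 to 0.017. SLC2A1, SLC2A3, ENO2, PFKFB4, PGLS and DLAT kept their direction under all alternatives run for them. These alternatives reuse the arrays on which the 6 were called. The number of arrays limits the precision, most for probe sets near the filter.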
